A study of Homo sapiens with 4 samples.

Results

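The protein tyrosine phosphatases were the probe sets of the array whose single gene symbol is a PTPN, PTPR or PTP4A gene, together with PTPRCAP, the CD45-associated protein, which is not a phosphatase itself. The rule matched symbols in the array annotation and used no measured value. It found 116 of the 54675 probe sets, for 38 of the 19775 genes named by a probe set with 1 symbol. Total RNA of 2 human lymphoma cell lines was hybridised to 4 arrays, 1 per condition. MyLa is labelled as derived from mycosis fungoides and HH as coming from a cutaneous T-cell lymphoma. The cells were kept for 40 hours in medium with 0.1% fetal calf serum, either without addition, as the control, or with 5 ng/ml of the γ form of interleukin-32 (IL-32γ), a cytokine made by lymphocytes, epithelial and other cells. All 4 cultures thus shared the low serum, and each line stands for 1 patient's tumour cells grown in culture.

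Protein tyrosine phosphatases remove phosphate from tyrosine and so oppose, and at some sites enable, the kinases that carry signals from antigen and cytokine receptors. In T cells the receptor phosphatase CD45 (PTPRC) removes the inhibitory phosphate of the Src-family kinases LCK and FYN, while the cytosolic enzymes PTPN22, PTPN6 (SHP-1), PTPN2 and PTPN1 damp T cell receptor and JAK-STAT signalling and PTPN11 (SHP-2) mostly supports signalling to RAS. The family falls into receptor-type enzymes, named PTPR, that span the plasma membrane, cytosolic enzymes, named PTPN, and the small prenylated PRL phosphatases, named PTP4A.

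Values are log2 expression values after GCRMA, a method that corrects background by probe sequence, and a difference of 1 is 2-fold. On each array 50.5% to 51.1% of all probe sets lay below 3 and 42.9% to 43.3% at 5 or more, so a probe set was called measured at 5 or more. Values below 5 were set to 5 before any difference, and a fold against such a value is a lower bound. With 1 array per condition, a difference with IL-32γ within a line has no replicate and no test, and only its size is given. Levels of different genes are not compared, since probe sets differ in how strongly they bind. Where a gene has several probe sets, the one with the highest mean over the 4 arrays is called its brightest. In bulk RNA, fewer cells with a transcript and less transcript per cell cannot be told apart. Of the defining T cell markers, CD3D, CD3G, CD247, CD2 and TRBC1 were measured in both lines, CD3E, CD4 and CD5 in HH but, by their brightest probe sets, at 2.27 or less in MyLa, and CD7, CD28 and LCK in neither. No marker of B cells, keratinocytes, melanocytes, endothelium or erythroid cells was measured, while 1 of 4 myeloid markers on the array, the integrin ITGAM, read 9.00 and 8.73 in MyLa and 2.13 in HH, and 1 of 4 fibroblast markers, the collagen COL1A1, read 11.30 and 10.82 in MyLa and 4.78 and 5.66 in HH. The defining genes CD14, LYZ, CSF1R, COL1A2, DCN and PDGFRA were below 5 on every array. The part of such other cells in the differences between lines was not tested.

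Of the 116 member probe sets, 58 were at 5 or more on at least 1 array and 44 on all 4. The measured probe sets covered 27 of the 38 genes. The other 11 genes, PTPN5, PTPN20, PTPN21, PTPRB, PTPRD, PTPRF, PTPRH, PTPRN, PTPRR, PTPRU and PTPRZ1, had 27 probe sets that all stayed at 4.42 or less, so their transcripts were not detectable here. Several of these are enzymes of neurons, epithelium or endothelium, such as PTPRZ1 and PTPRB. In all, 29 member probe sets lay at the table's minimum of 2.13 on every array.

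**Figure D1:**
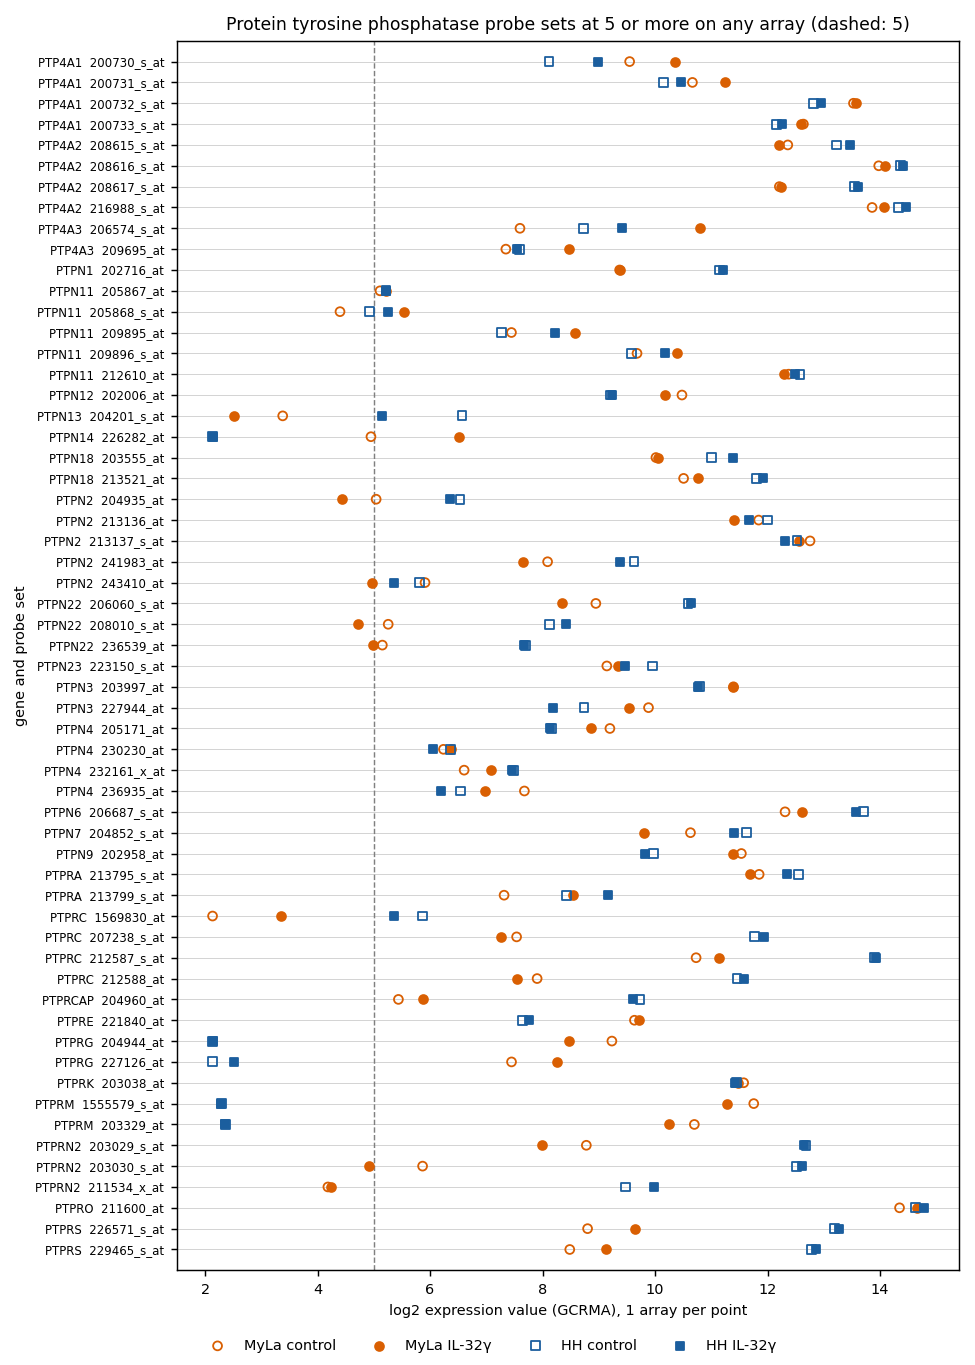
Log2 expression value of each of the 58 measured probe sets, 1 row per gene and probe set and 1 point per array (open, control; filled, IL-32γ; circles, MyLa; squares, HH), with a dashed line at 5. PTPRM and PTPRG lie at 7.45 or more on the MyLa arrays and at 2.51 or less in HH, whereas PTPRC, PTPRCAP, PTPRN2, PTPRS and PTPN22 lie to the right in HH.

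In a limma fit over 25306 probe sets, with the pair of arrays of a line as its replicates, 29 of 57 tested member probe sets (50.9%) were at least 2-fold apart at a Benjamini-Hochberg adjusted p under 0.05, against 35.0% of all probe sets tested. Of these, 8 (14.0%) were higher in MyLa, where the background was 18.2%, and 21 (36.8%) were lower in MyLa, where the background was 16.8%. The 8 belong to PTPRM, PTPRG, PTPRE, PTPN3, PTPN9 and PTPN12, and the 21 to PTPRC, PTPRCAP, PTPRN2, PTPRS, PTPN1, PTPN2, PTPN6, PTPN7, PTPN18, PTPN22 and PTP4A2. The median difference, MyLa minus HH, was -0.35 over the 57 members and -0.01 over all probe sets. Among probe sets at 5 or more on all 4 arrays, the 2 values of one line both exceeded those of the other in 35 of 44 members (79.5%) and in 77.3% of all probe sets, so separation by line was about as common as elsewhere on the array; the higher line was HH in 22 members and MyLa in 13, while over all probe sets it was HH in 8303 and MyLa in 7885.

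The spread of this fit is that between a control and an IL-32γ array, which the labels do not describe as replicate cultures, so p-values measure only the spread between these arrays. Signal toward the 5′ end of the array's control genes also moved with the line: the ACTB 5′ probe set read 10.12 and 11.81 in MyLa and 12.69 and 13.58 in HH, and the middle one 12.91 and 13.63 against 14.42 and 14.73, while the 3′ one read 15.14 and 15.07 against 15.27 and 15.24. The GAPDH 5′ probe set read 14.06 and 14.75 against 14.73 and 14.88. The part of this in the member probe sets that were lower in MyLa was not tested. The calls also rest on few arrays. Without the HH control array 3 member probe sets were called higher and 9 lower in MyLa, and without the HH IL-32γ array 3 and 8, while without the MyLa control array the counts were 6 and 19 and without the MyLa IL-32γ array 8 and 17. Over all probe sets the shares called higher and lower were 6.80% and 8.28% without the HH control, 6.31% and 8% without the HH IL-32γ array, 13.1% and 11.8% without the MyLa control, and 13.7% and 12.2% without the MyLa IL-32γ array. In each of these fits a line had 1 array, which was assumed to vary like the pair of the other line. Whichever array was left out, 10 of the 29 calls were kept, those of both PTPRM probe sets, PTPRE, PTPRC 207238_s_at, PTPN1, PTPN2 204935_at, PTPN22 208010_s_at and 236539_at, PTPRN2 211534_x_at and PTP4A2 208617_s_at. No called difference changed sign in any of these fits. PTPRM had both HH values set to 5, and PTPRN2 211534_x_at both MyLa values. The spread of that line is thus 0 by the floor, so 2 of the 4 fits of each are no check of its spread. PTPN2 204935_at and PTPN22 208010_s_at and 236539_at each had 1 MyLa value set to 5, which narrows the spread of MyLa. In PTPN2 204935_at the MyLa arrays differed by -0.61 as read and by -0.04 with the floor. For these probe sets, the fits without an HH array rest on that narrowed spread.

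**Figure D2:**
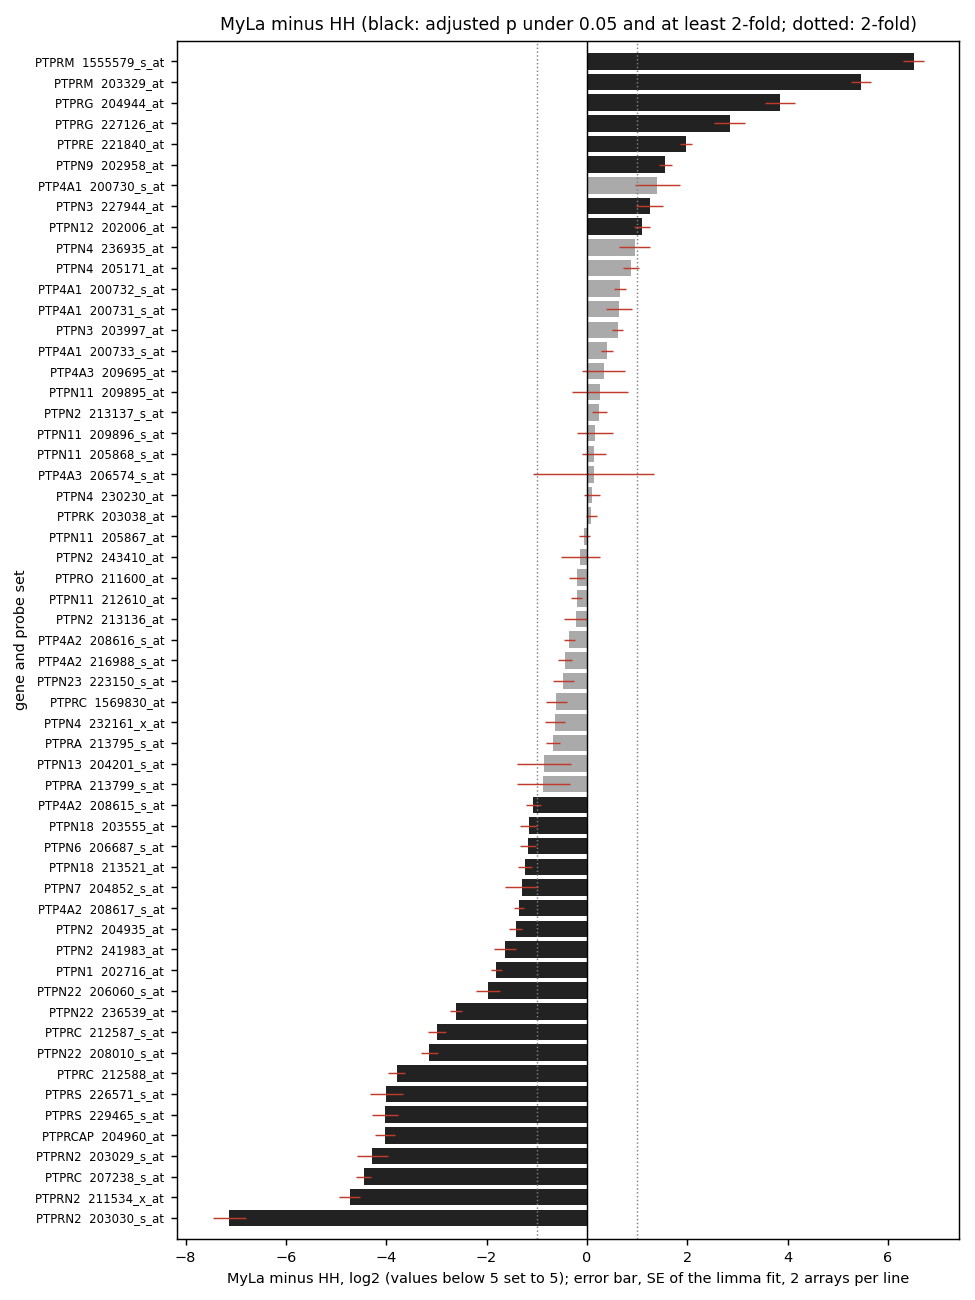
Difference between the lines, MyLa minus HH, on the log2 scale for the 57 tested member probe sets, in order of size, as bars from 0 with the standard error of the limma fit (2 arrays per line, values below 5 set to 5). Black bars are the 29 called probe sets, and dotted lines mark 2-fold. The bars run from -7.13 for PTPRN2 203030_s_at to 6.51 for PTPRM 1555579_s_at.

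The stretches before the start sites of 4 receptor-type genes that differed widely between the lines, and of the lymphoid gene PTPN22, are shown for their CG content. PTPRN2, which also differed widely, had no listed promoter. The sequences are the 250 bases before the RefSeq start site in the human build GRCh38.p14, on the gene's strand, 5′ to 3′, with each CG, the dinucleotide that carries DNA methylation, in capitals. CG reads the same on both strands. PTPRM starts after chr18:7567066-7567315 on the plus strand, PTPRG after chr3:61561321-61561570 on the plus strand, PTPRS after chr19:5340813-5341062 on the minus strand, PTPRC after chr1:198638790-198639039 on the plus strand and PTPN22 after chr1:113871713-113871962 on the minus strand.
PTPRM: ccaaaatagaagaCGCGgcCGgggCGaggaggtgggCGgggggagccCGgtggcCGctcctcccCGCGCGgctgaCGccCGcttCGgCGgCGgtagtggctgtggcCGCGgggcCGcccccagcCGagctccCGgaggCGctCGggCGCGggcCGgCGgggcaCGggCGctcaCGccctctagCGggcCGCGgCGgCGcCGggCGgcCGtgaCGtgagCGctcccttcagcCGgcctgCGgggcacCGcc
PTPRG: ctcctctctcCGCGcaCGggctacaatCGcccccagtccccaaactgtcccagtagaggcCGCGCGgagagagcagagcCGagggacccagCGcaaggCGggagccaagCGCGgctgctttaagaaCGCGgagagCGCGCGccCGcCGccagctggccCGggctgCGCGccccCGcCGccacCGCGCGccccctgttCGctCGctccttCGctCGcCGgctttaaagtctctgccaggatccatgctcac
PTPRS: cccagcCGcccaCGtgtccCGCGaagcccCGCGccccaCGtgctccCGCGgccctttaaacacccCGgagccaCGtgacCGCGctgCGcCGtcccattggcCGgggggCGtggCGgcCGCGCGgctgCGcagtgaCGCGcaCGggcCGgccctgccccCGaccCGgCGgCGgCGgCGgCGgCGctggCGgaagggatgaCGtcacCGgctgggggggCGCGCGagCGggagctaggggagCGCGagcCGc
PTPRC: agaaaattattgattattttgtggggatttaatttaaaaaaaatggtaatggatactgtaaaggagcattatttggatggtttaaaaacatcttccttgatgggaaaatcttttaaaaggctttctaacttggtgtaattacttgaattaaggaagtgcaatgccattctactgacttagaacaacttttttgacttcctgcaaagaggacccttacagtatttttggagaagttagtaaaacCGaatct
PTPN22: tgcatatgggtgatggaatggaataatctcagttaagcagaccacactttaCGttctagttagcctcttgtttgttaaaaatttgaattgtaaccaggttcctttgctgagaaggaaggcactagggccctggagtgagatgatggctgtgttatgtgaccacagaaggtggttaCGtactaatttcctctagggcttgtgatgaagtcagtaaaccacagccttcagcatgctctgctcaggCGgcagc

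The PTPRM stretch holds 42 CG, as many or more than which are found in 1.38% of 35116 RefSeq promoters of this length. That of PTPRS holds 44 (0.769% of promoters hold as many) and that of PTPRG 32 (9.52%). The lymphocyte genes PTPRC and PTPN22 have few, 1 CG before PTPRC, a count reached by 93.9% of promoters, and 3 before PTPN22, reached by 77.1%. Low counts were not limited to PTPRC and PTPN22, as PTPN2 also has 1 CG. PTPRM has a second listed start with 2 CG before it. The median was 14.5 over the 56 listed promoters of member genes and 11 over all. Methylation was not measured, and these counts describe the sequence alone.

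PTPRC encodes CD45, the most abundant phosphatase of the leukocyte surface. In MyLa, probe set 212587_s_at read 10.73 in the control and 11.13 after IL-32γ, and in HH it read 13.90 and 13.92. Probe set 207238_s_at read 7.54, 7.27, 11.77 and 11.94 in the same order, and 212588_at read 7.90, 7.54, 11.46 and 11.57. Both HH arrays were above both MyLa arrays in all 3, and the gap was many times that between the arrays of a line. PTPRC was 7.92-fold lower in MyLa by 212587_s_at (log2 difference -2.98, SE 0.18, limma adjusted p = 0.00134), 21.9-fold lower by 207238_s_at (-4.45, SE 0.16, adjusted p = 0.000393) and 13.9-fold lower by 212588_at (-3.79, SE 0.17, adjusted p = 0.000725). The first call was lost without the HH control array (adjusted p = 0.0632) or the HH IL-32γ array (0.0654), and the call of 212588_at without the HH IL-32γ array (0.0525). The remaining probe sets add little, since 1569830_at reached 5 in HH alone, at 5.86 and 5.36, and 1552480_s_at stayed at 2.51 or less. CD45 is made in isoforms that differ in alternative exons of the extracellular part, but where each probe set lies in the transcript is not given in the files, so the unequal folds were not assigned to isoforms.

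PTPRCAP, which binds CD45 in lymphocytes, followed the same order. Its probe set 204960_at read 5.44 and 5.87 in MyLa and 9.73 and 9.61 in HH. It was 16.2-fold lower in MyLa (log2 difference -4.02, SE 0.19, limma adjusted p = 0.000798), with an adjusted p of 0.0546 without the HH control array and 0.0550 without the HH IL-32γ array. With IL-32γ, PTPRC and PTPRCAP differed by less than 1.5-fold in either line: the 3 PTPRC probe sets on all arrays ran from -0.37 to 0.40 in MyLa and from 0.02 to 0.17 in HH, and their signs were mixed in MyLa.

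Among the other receptor-type genes, PTPRM had the largest contrast in favour of MyLa. It encodes an adhesion phosphatase whose extracellular part binds its own kind on neighbouring cells. Probe set 1555579_s_at read 11.75 and 11.27 on the MyLa control and IL-32γ arrays and 2.28 on both HH arrays, and 203329_at read 10.70 and 10.24 against 2.36 on both. HH thus lay at the array's background in both probe sets. The difference was at least 91.3-fold (6.51, SE 0.20, limma adjusted p = 0.000317) and at least 44.3-fold (5.47, SE 0.20, adjusted p = 0.000417). PTPRK, of the same adhesion group, was measured in both lines at 11.58, 11.47, 11.44 and 11.42 and showed no difference past the threshold (0.09, adjusted p = 0.523).

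PTPRG, a receptor-type enzyme with a carbonic-anhydrase-like domain outside the cell, was also measured in MyLa alone. Probe set 204944_at read 9.23 and 8.47 in MyLa against 2.13 on both HH arrays, at least 14.4-fold higher in MyLa (3.85, SE 0.30, limma adjusted p = 0.00243). Probe set 227126_at read 7.45 and 8.25 against 2.13 and 2.51, at least 7.21-fold higher (2.85, SE 0.31, adjusted p = 0.00550). Both calls were lost when an HH array was left out, at unchanged differences, since HH was at the floor on both arrays, with adjusted p of 0.0861 and 0.117 without the HH control array and 0.0885 and 0.119 without the HH IL-32γ array. Within MyLa the probe sets went opposite ways with IL-32γ, 1.70-fold lower for 204944_at and 1.75-fold higher for 227126_at, so no direction of the gene can be given.

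PTPRE, a short-ectodomain enzyme related to PTPRA, read 9.63 and 9.71 in MyLa and 7.64 and 7.76 in HH with probe set 221840_at. It was 3.93-fold higher in MyLa (1.97, SE 0.12, limma adjusted p = 0.00127), a call kept whichever array was left out. PTPRA, which removes the inhibitory phosphate of Src-family kinases, read 11.85, 11.68, 12.55 and 12.35 with 213795_s_at on the arrays in the order MyLa control, MyLa IL-32γ, HH control and HH IL-32γ. It was thereby lower in MyLa (-0.68, adjusted p = 0.0249) but by less than 2-fold. PTPRO was measured by 1 of its listed probe sets, 211600_at, at 14.35 to 14.78 on all 4 arrays. Its others, 208121_s_at and 1554199_at, stayed at the background, at 2.37 or less. Whether 211600_at reads PTPRO could not be settled here.

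Besides PTPRC, the receptor-type genes PTPRN2 and PTPRS were higher in HH. PTPRN2, or phogrin, is a protein of the secretory vesicles of neuroendocrine cells with little activity against phosphotyrosine proteins. Probe set 203030_s_at read 5.87 and 4.92 in MyLa and 12.51 and 12.61 in HH, and 203029_s_at read 8.78 and 7.99 against 12.68 and 12.65. The remaining one, 211534_x_at, read 4.18 and 4.24 against 9.47 and 9.98. HH was far above MyLa in each. PTPRN2 was lower in MyLa by at least 140-fold (-7.13, SE 0.34, limma adjusted p = 0.000765), 19.5-fold (-4.28, SE 0.31, adjusted p = 0.00204) and at least 26.5-fold (-4.73, adjusted p = 0.000696), respectively. The first 2 calls were lost without the HH control array (adjusted p = 0.0581 and 0.0812) or the HH IL-32γ array (0.0604 and 0.0827).

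PTPRS, a receptor for heparan and chondroitin sulfate proteoglycans, read 8.80 and 9.65 in MyLa and 13.18 and 13.26 in HH with probe set 226571_s_at. Probe set 229465_s_at read 8.48 and 9.12 against 12.78 and 12.86. The probe sets gave nearly the same contrast, 16.0-fold lower in MyLa (-4.00, SE 0.33, limma adjusted p = 0.00281) and 16.2-fold lower (-4.02, SE 0.26, adjusted p = 0.00157). Without the HH control array the adjusted p were 0.0905 and 0.0709, and without the HH IL-32γ array 0.0939 and 0.0743. The other members of its group, PTPRD and PTPRF, were not measured.

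Among the cytosolic enzymes PTPN22, which works with the kinase CSK against LCK and ZAP70 and carries risk alleles of autoimmune disease, was lower in 3 probe sets. Probe set 206060_s_at read 8.95 and 8.34 in MyLa and 10.59 and 10.64 in HH, 208010_s_at read 5.25 and 4.72 against 8.13 and 8.41, and 236539_at read 5.15 and 4.98 against 7.69 and 7.67. In none of them did a MyLa value reach an HH value. The differences were 3.93-fold (-1.97, SE 0.25, limma adjusted p = 0.00759), at least 8.83-fold (-3.14, adjusted p = 0.00112) and at least 6.09-fold (-2.61, adjusted p = 0.000680). The call of 206060_s_at was lost without the HH control array (adjusted p = 0.126) or the HH IL-32γ array (0.132). The related PEST enzyme PTPN18 was lower in MyLa by 2.24-fold and 2.35-fold in its 2 measured probe sets (-1.16 and -1.23, adjusted p = 0.0116 and 0.00660). PTPN12, or PTP-PEST, a phosphatase of focal adhesion proteins, went the other way at 10.48 and 10.18 in MyLa against 9.21 and 9.24 in HH, 2.14-fold higher in MyLa (1.10, SE 0.15, adjusted p = 0.00943). The call of PTPN18 203555_at was lost without the MyLa control (adjusted p = 0.114), the MyLa IL-32γ (0.109) or the HH IL-32γ array (0.0519). That of PTPN18 213521_at was lost without the HH control (0.0909) or the HH IL-32γ array (0.100). PTPN12 lost its call without either HH array (0.119 each) and, at a difference of 0.95, without the MyLa control.

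Of the SH2-domain pair, PTPN6 differed between lines and PTPN11 did not pass the test. PTPN6, or SHP-1, which is recruited to inhibitory receptors and is reported to be silenced in some T-cell lymphomas, was strongly measured everywhere. Probe set 206687_s_at read 12.31 and 12.61 in MyLa and 13.70 and 13.58 in HH. It was 2.27-fold lower in MyLa (-1.18, SE 0.16, limma adjusted p = 0.00869), a call lost without the HH control array (adjusted p = 0.115), without the HH IL-32γ array (0.107), and with no floor and no filter (0.0639). PTPN11, or SHP-2, read 12.38, 12.29, 12.58 and 12.50 with 212610_at on the 4 arrays in the order above, a difference between lines of -0.20 (adjusted p = 0.204).

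The JAK-STAT phosphatases PTPN1 and PTPN2 are close relatives. PTPN1, or PTP1B, read 9.37 and 9.38 in MyLa and 11.15 and 11.22 in HH with 202716_at, so that it was 3.50-fold lower in MyLa (-1.81, SE 0.11, limma adjusted p = 0.00126) whichever array was left out. PTPN2, the T cell phosphatase that acts on JAK1, JAK3 and STAT proteins, gave no single answer. Its 213137_s_at read 12.76 and 12.56 in MyLa and 12.52 and 12.30 in HH (0.25, adjusted p = 0.237), and 213136_at read 11.84 and 11.40 against 12.01 and 11.68 (-0.22, adjusted p = 0.458). In contrast 241983_at, at 8.09 and 7.65 against 9.63 and 9.38, was 3.10-fold lower in MyLa (-1.63, adjusted p = 0.00816), and 204935_at, at 5.04 and 4.43 against 6.53 and 6.35, at least 2.68-fold lower (-1.42, adjusted p = 0.00318). Without the HH control, HH IL-32γ or MyLa IL-32γ array the call of 241983_at was lost (adjusted p = 0.121, 0.108 and 0.0587), and with a floor of 6 that of 204935_at (-0.44).

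PTPN7, a lymphoid phosphatase that acts on ERK and p38 kinases, read 10.63 and 9.81 in MyLa and 11.63 and 11.41 in HH with 204852_s_at. It was 2.46-fold lower in MyLa (-1.30, SE 0.33, limma adjusted p = 0.0407), but the adjusted p was 0.277 without the HH control array, 0.241 without the HH IL-32γ array and 0.0830 without the MyLa IL-32γ array. PTPN9, which sits on secretory vesicles, was higher in MyLa at 11.53 and 11.38 against 9.97 and 9.82, 2.96-fold (1.56, SE 0.13, adjusted p = 0.00278), with 0.0543 and 0.0598 without the HH control or the HH IL-32γ array. PTPN23, a phosphatase-like protein of endosomal sorting, read 9.14, 9.33, 9.95 and 9.47 on the 4 arrays and did not pass the test (-0.47, adjusted p = 0.151).

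The FERM-domain enzymes connect to the membrane skeleton. PTPN3, which can act on the T cell receptor ζ chain, was 2.38-fold higher in MyLa by 227944_at, at 9.88 and 9.53 against 8.74 and 8.18 (1.25, SE 0.26, limma adjusted p = 0.0263), and 203997_at differed by less than 2-fold in the same direction (0.61, adjusted p = 0.0155). The call was lost whichever array was left out, with adjusted p from 0.0990 to 0.186. PTPN4 had 4 probe sets on all arrays and none reached 2-fold, with differences from -0.63 to 0.96. PTPN13, which binds the death receptor FAS, was measured in HH alone: 204201_s_at read 6.57 in control HH cells and 5.14 after IL-32γ, against 3.38 and 2.51 in MyLa. Its difference between lines did not pass (-0.85, adjusted p = 0.256) and the lower adjusted p without the HH IL-32γ array (-1.57, adjusted p = 0.0365) rests on MyLa values that were both set to 5 and so have no spread. PTPN14, a regulator of the Hippo pathway protein YAP, was measured on a single array, MyLa with IL-32γ, at 6.52 after 4.95 in the control, and lay at 2.13 on both HH arrays.

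The PRL phosphatases are small enzymes held at membranes by a prenyl group and named for regenerating liver. PTP4A2 was lower in MyLa in all 4 probe sets on the arrays, and 2 of them were called. Its 208617_s_at read 12.21 and 12.23 in MyLa and 13.54 and 13.61 in HH (-1.35, 2.56-fold, limma adjusted p = 0.00243), and 208615_s_at read 12.36 and 12.20 against 13.23 and 13.46 (-1.07, 2.10-fold, adjusted p = 0.00923). The second call was lost whichever array was left out, with adjusted p from 0.0685 to 0.0877. The 4 measured PTP4A1 probe sets differed by 0.40 to 1.40, MyLa above HH, without a call, and its remaining one lay at 2.13 on every array. The PTP4A3 probe sets had mean differences of 0.13 and 0.34, but in 206574_s_at MyLa was below HH in the control (-1.13) and above it with IL-32γ (1.40), and in 209695_at the values were -0.25 and 0.92. Their lines therefore overlapped.

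With IL-32γ, more member probe sets passed 1.5-fold in MyLa than in HH, as was the case for all probe sets. In MyLa 17 of 55 measured member probe sets (30.9%) were 1.5-fold or more apart between the IL-32γ and the control array, against 20.1% of all probe sets: 10 were higher (18.2%, background 11.0%) and 7 lower (12.7%, background 9.13%). In HH 5 of 53 (9.43%) were, against 9.46% of all: 4 were higher (7.55%, background 5.45%) and 1 lower (1.89%, background 4.02%). The median difference was 0.01 over the members and -0.05 over all probe sets in MyLa, and 0.02 and -0.02 in HH. Of the 44 member probe sets at 5 or more on all 4 arrays, 32 (72.7%) had the same sign in both lines, against 64.3% of all such probe sets. The 32 were 19 higher and 13 lower in both lines, whereas over all probe sets 5559 were higher and 7885 lower in both.

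PTP4A3, or PRL-3, linked to metastasis in several cancers, gave the largest difference of any member. Probe set 206574_s_at read 7.60 in control MyLa cells and 10.80 after IL-32γ, and 8.73 and 9.41 on those of HH. That is 9.23-fold higher in MyLa and 1.60-fold higher in HH. Its second probe set, 209695_at, read 7.35 and 8.47 in MyLa, 2.18-fold higher, but 7.59 and 7.55 in HH. Both probe sets were thus above their control in MyLa, by unequal amounts, while in HH they disagreed in sign. The third, 214223_at, stayed at 4.30 or less.

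A probe set passed 1.5-fold upward in both lines for PTP4A3, PTP4A1, PTPN11 and PTPRA, so for 4 of 44 members (9.09%) against 1.87% of all probe sets at 5 or more on all arrays. None passed downward in both, against 0.922% of all. PTP4A1 200730_s_at read 9.55 and 10.35 in MyLa and 8.11 and 8.99 in HH, 1.75-fold and 1.84-fold higher with IL-32γ. PTPN11 209895_at read 7.45 and 8.58 in MyLa and 7.27 and 8.23 in HH, 2.19-fold and 1.94-fold higher, and PTPRA 213799_s_at read 7.31 and 8.54 in MyLa and 8.42 and 9.17 in HH, 2.33-fold and 1.68-fold higher. In these 3 genes the brightest probe sets did not follow. PTP4A1 200732_s_at and 200733_s_at differed by -0.05 to 0.13, PTPN11 212610_at by -0.09 and -0.08, and PTPRA 213795_s_at by -0.17 and -0.20 (MyLa, HH for each gene). PTPN11 209896_s_at lay between, at 0.72 in MyLa and 0.58 in HH, and PTP4A1 200731_s_at at 0.57 and 0.30.

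The array's control probe sets also differed with IL-32γ, by their place along the transcript. The 5′ probe set of ACTB was higher with IL-32γ by 1.69 in MyLa and 0.89 in HH, its middle one by 0.72 and 0.31, and its 3′ one differed by -0.08 and -0.03. For GAPDH the 5′ probe set was higher by 0.68 and 0.15 and the 3′ one by 0.04 and 0.03. So the IL-32γ arrays read more signal far from the 3′ end for both genes and in both lines. The positions of the member probe sets in their transcripts are not in the files, and the part of this in the differences of PTP4A1, PTP4A3, PTPN11 and PTPRA was not tested.

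**Figure D3:**
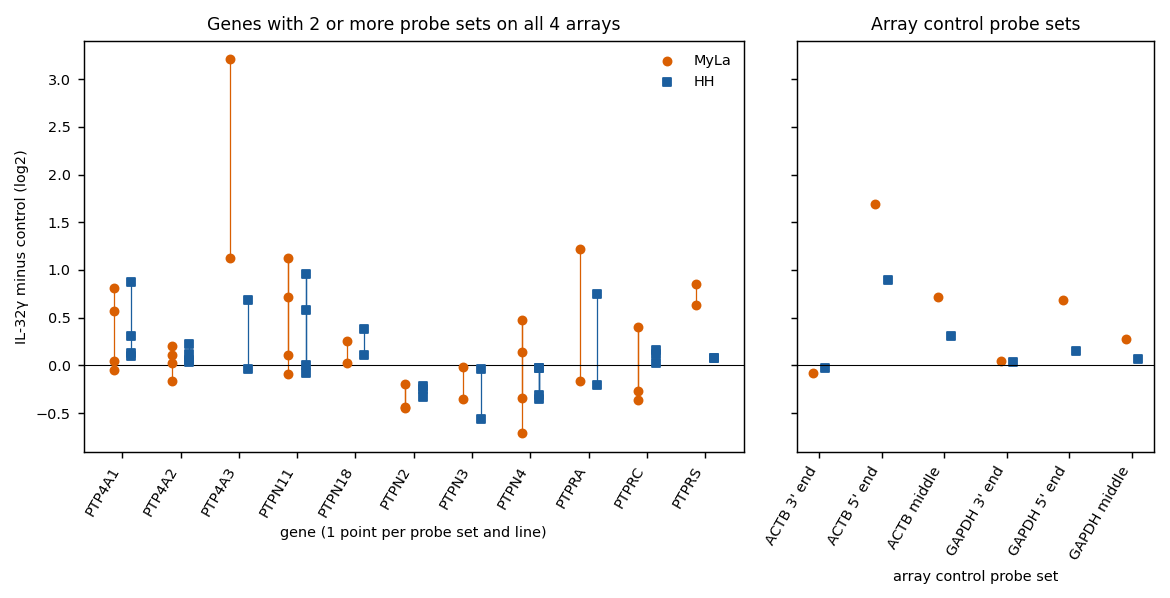
Left, difference with IL-32γ on the log2 scale for each probe set of the 11 member genes with at least 2 probe sets at 5 or more on all 4 arrays (circles, MyLa; squares, HH). Right, the same difference for the array's control probe sets of ACTB and GAPDH by place in the transcript. Probe sets of 1 gene spread by up to 2.08 in MyLa (PTP4A3), and the 5′ control probe sets lie above the 3′ ones in both lines.

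Probe sets of 1 gene therefore disagreed often. Over the 11 member genes with at least 2 probe sets at 5 or more on all 4 arrays, the median spread of the IL-32γ difference among a gene's probe sets was 0.76 in MyLa and 0.33 in HH, against 0.44 and 0.28 over 4603 such genes. Spread here is the range from a gene's lowest to its highest probe set. It can grow with the number of probe sets, on which the genes were not matched. The spread passed 1.5-fold in 6 of 11 (54.5%) in MyLa against 37.9% of all, and in 4 (36.4%) in HH against 20.8%. The difference between lines had the same sign in every probe set in 8 of 11 genes (72.7%) against 74.0% of all.

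In limma over both lines, with the line as a block, no probe set of the array had an adjusted p under 0.05 for IL-32γ: 0 of 57 members and 0% of the 25306 tested. At an unadjusted p under 0.05 there were 8 members (14.0%) against 10.2% of all probe sets, 5 of them higher (background 4.87%) and 3 lower (background 5.29%). The 5 were PTP4A1 200730_s_at (mean difference 0.84, SE 0.13) and 200731_s_at (0.44, SE 0.14), PTPN11 209895_at (1.04, SE 0.13) and 209896_s_at (0.65, SE 0.13), and PTPRA 213799_s_at (0.98, SE 0.18). The 3 were PTPN2 243410_at (-0.68, SE 0.18), PTPN3 227944_at (-0.46, SE 0.14) and PTPN4 236935_at (-0.53, SE 0.16). Their limma adjusted p lay between 0.483 and 0.491, and each differed in the same direction in both lines.

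**Figure D4:**
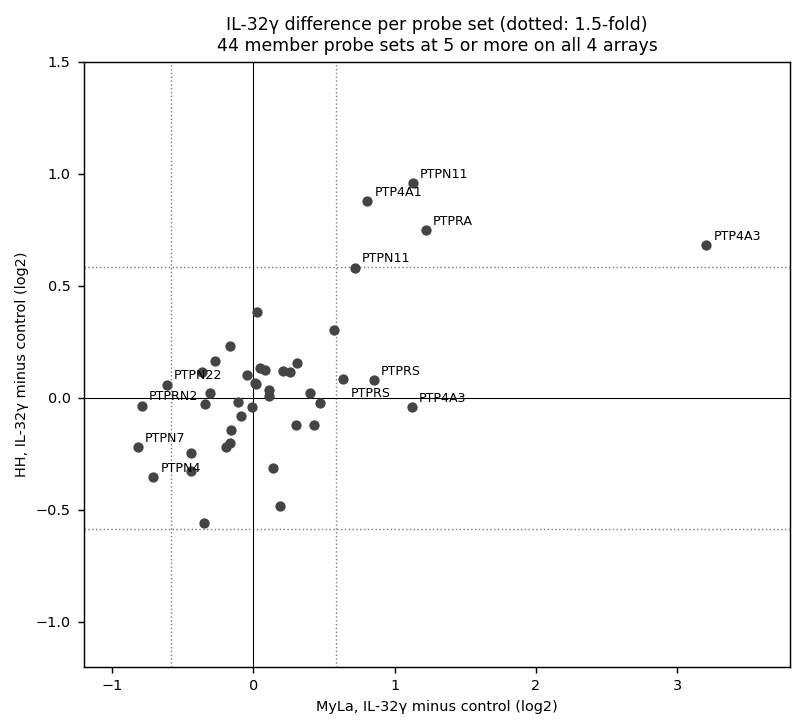
Difference with IL-32γ, on the log2 scale, in MyLa (x axis) and HH (y axis) for the 44 member probe sets at 5 or more on all 4 arrays, 1 point each, with dotted lines at 1.5-fold and names on those past it in either line. PTP4A3 206574_s_at lies farthest right at 3.21, and 4 points pass 1.5-fold upward in both lines.

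PTPN2 gave small differences of 1 sign. All 5 measured probe sets were below their control with IL-32γ in both lines, by -0.19 to -0.44 in MyLa and -0.22 to -0.33 in HH for the 3 on all arrays. Of the others, 243410_at read 5.91 and 4.97 in MyLa, at least 1.88-fold lower, and 5.81 and 5.36 in HH, and 204935_at went from 5.04 to 4.43 in MyLa and from 6.53 to 6.35 in HH. In MyLa alone PTPN7 was 1.76-fold lower with IL-32γ, PTPN22 206060_s_at 1.53-fold lower (8.95 to 8.34), PTPN4 236935_at 1.63-fold lower (7.68 to 6.97) and PTPRN2 1.73-fold and at least 1.82-fold lower in 203029_s_at and 203030_s_at. In HH the same probe sets of PTPN7, PTPN22, PTPN4 and PTPRN2 differed by -0.22, 0.06, -0.35, -0.04 and 0.10. The difference between the lines' responses was not tested, since each rests on 1 pair of arrays.

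PTPRS was higher with IL-32γ in MyLa, 1.80-fold and 1.55-fold in its measured probe sets, and differed by 1.06-fold in both in HH. PTPN14 was at least 2.87-fold higher in MyLa, though by 0.52 on the log2 scale with a floor of 6. Thus PTPRS and PTPRN2, both far lower in MyLa than in HH, went opposite ways there. In HH the single member past 1.5-fold downward was PTPN13, 6.57 to 5.14, or 2.69-fold lower, which with a floor of 6 was -0.57. PTPN6, PTPN1, PTPN12, PTPN9, PTPN18, PTPRE, PTPRK and PTPRM stayed within 1.5-fold in every line where they were measured.

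The partners of these enzymes were taken from lists of related genes, with the brightest probe set for each gene. Of 27 substrates and binding partners 22 were tested between lines, and 10 were higher and 2 lower in MyLa, where the background over all genes by their brightest probe set was 18.7% and 16.8%. The median was 0.52, against 0.03 over all genes taken in this way. PAG1, the membrane adaptor that anchors CSK, read 13.37 and 13.40 in MyLa and 8.82 and 8.93 in HH (4.51, SE 0.11, limma adjusted p = 0.000207). CSK, the kinase that places the phosphate CD45 removes, read 12.39 and 12.24 against 10.49 and 10.23 (1.96, SE 0.15, adjusted p = 0.00233). MyLa thus had more transcript of CSK and PAG1 and less of PTPRC. LCK, the main target of CD45 in T cells, stayed at the table's minimum on all 4 arrays, while FYN was higher in MyLa (1.47, adjusted p = 0.0161), as was STAT5A (4.10). VAV1 was lower (-2.54, adjusted p = 0.00103). With IL-32γ, ZAP70 and JAK3 were higher and JAK2 lower past 1.5-fold in MyLa (0.62, 0.60 and -0.96), against 7.77% higher and 7.65% lower over all genes. The other JAK2 probe set measured on all arrays had the opposite sign (0.31). In HH 0 of 21 passed, against 1.14% higher and 4.46% lower over all genes.

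Of 12 receptors listed as candidates to recruit PTPN6 or PTPN11, 11 were on the array with a named probe set and 2 were measured. Recruitment was not tested. CD5 was measured in HH alone, at 12.09 and 11.98, and SIT1 was higher in MyLa (3.40). The other 9, among them BTLA, LAIR1, CD22 and PECAM1, were below 5 everywhere. All 8 regulators of PTPRC exon choice were measured. By their brightest probe sets 0 were called between lines (median -0.14), against 18.7% of all genes higher and 16.8% lower in MyLa. HNRNPLL, which favours skipping of the alternative exons, differed by -0.69 in its brightest probe set (adjusted p = 0.0663), and was lower in MyLa by -1.32 and -1.27 in 2 others (adjusted p = 0.00872 and 0.00402). With IL-32γ, HNRNPL was the single one past 1.5-fold by its brightest probe set, lower in MyLa by -0.61, against 7.65% of all genes lower past it, and another HNRNPLL probe set was higher in HH by 0.91.

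Of the magnesium transport proteins that bind PRL phosphatases, CNNM2 was higher in MyLa (2.09, limma adjusted p = 0.0317) and lower with IL-32γ in both lines, by -0.996 in MyLa and -0.78 in HH. CNNM4 was lower with IL-32γ in MyLa by -0.71, and CNNM1 was not measured. Among 14 other phosphatases 10 were tested. In MyLa 0 were higher and 4 lower, against 18.7% and 16.8% of all genes by their brightest probe set. The 4 were the cell-cycle enzymes CDC25B (-1.09), CDC25C (-2.71) and CDC14B (-1.79), and the cofilin phosphatase SSH3 (-3.00). PTPRJ, PTPRQ and PTPRT had no probe set with a single symbol and were not analysed here.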

How the data were processed

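RNA was labelled with biotin, per the labels, and each condition has 1 array. The authors deposited log2 values for every probe set, made with GCRMA per the submitters' processing notes. The GCRMA version and any joint run of the arrays are not stated in the sources used here. The log2 scale was inferred from the range, 2.13 to 16.0. Symbols are those of the array annotation, and all 116 members matched a RefSeq gene (assembly GRCh38.p14) by Entrez identifier. Some probe sets carried several symbols (1801) or were unlisted (11777), leaving 41097 with a single symbol.

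Values below 5 were set to 5, and a within-line difference was taken where 1 of the 2 arrays reached 5. The fits used limma 3.58.1 (R 4.3.3) on the 25306 probe sets at 5 or more on at least 2 of 4 arrays, two-sided, with Benjamini-Hochberg adjustment over all of them: IL-32γ with line as a block (1 residual degree of freedom) and MyLa minus HH without a block (2). The fits were tested on simulated data. Lists give each gene's brightest probe set. The number of arrays limits the precision.

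The members and lists were chosen with earlier results of these data known. Genes described singly are those of T cell signalling and those with a probe set past 1.5-fold with IL-32γ or called between lines, and PTPRK, PTPRO, PTPN23 and the list genes given beside them were added to fill their groups. Alternatives changed the floor, the normalisation, the probe sets used, the fold, the model and the arrays. Promoter sequences are RefSeq's.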

Additional observations from a re-analysis of the deposited data

How the results depend on the processing

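No single probe set's difference past a threshold changed sign under an alternative that tests it on its own. With 1 value per gene some did, since the brightest probe sets of PTPN11 and PTPRA were below their control. The median over all probe sets moved by less than 0.1 with median centring, quantile or cyclic loess normalisation, which kept every count of member probe sets within 1.5 times. The counts that moved by more are these. With 2-fold in place of 1.5-fold, 5 member probe sets were higher and 0 lower in MyLa (4.18% and 1.96% of all) and 0 higher in HH (1.41%). With the brightest probe set for each gene, 3 genes were higher and 4 lower in MyLa with IL-32γ, 1 was higher in HH, 0 had an unadjusted p under 0.05, and 5 were called higher and 9 lower in MyLa than in HH. The shares over all genes were 7.77%, 7.65% and 1.14% with IL-32γ, 9.15% for the unadjusted p, and 18.7% and 16.8% between lines. With the mean of a gene's measured probe sets these were 4, 1, 0, 3, 5 and 9 (8.93%, 7.19%, 1.55%, 8.99%, 20% and 18% of all genes). These settings count genes, so fewer items were tested, 24 member genes in HH and 26 in the other comparisons. None of the 8 member probe sets with an unadjusted p under 0.05 in the main setting is the brightest of its gene. Probe sets whose identifier ends in _s_at or _x_at can read related transcripts. Without them, 4 were higher and 3 lower in MyLa with IL-32γ (9.94% and 10.9% of all). In HH 1 was higher and 0 lower (5.69% and 4.68%). There were 4 with an unadjusted p under 0.05 (10.4%), and 8 were called lower in MyLa than in HH (18.4%). With no floor and no filter, 7 were higher and 3 lower in HH (3.88% and 3.06% of all) and 13 were called lower between lines (5.09%), and with a floor of 6, 0 were lower in HH (3.13%). Without the line as a block 1 had an unadjusted p under 0.05. Leaving out each array in turn gave 3 to 8 calls higher and 8 to 19 lower in MyLa than in HH. Beyond left-out arrays, a call was checked only where its probe set was kept, so not with 1 value per gene. An _s_at or _x_at probe set was not checked in the setting without such probe sets. Of the 29 calls between lines, and leaving aside the fits with an array left out, 19 held under every alternative that tested them. Some of these 19, PTPRCAP and both of PTPRS among them, were lost without an HH array. The other 10 were lost under at least 1 of the alternatives that kept all arrays. These 10, lost with no floor and no filter, were PTPN2 204935_at and 241983_at, PTPN3 227944_at, PTPN6, PTPN7, PTPN12, both of PTPN18, PTPN22 206060_s_at and PTP4A2 208615_s_at. PTPN11 209896_s_at passed 1.5-fold in HH with any renormalisation (0.60). No adjusted call with IL-32γ was made under any alternative, the intensity trend included. The cause of these shifts was not tested. The labels give no replicate numbers. The IL-32γ fit pairs arrays by line, and the fit between lines with IL-32γ as a term pairs them by condition. The latter gave 9 calls higher and 21 lower in MyLa (18.8% and 17.9% of all probe sets). The number of arrays and signal near the floor limit PTPN13, PTPN14 and the low probe sets of PTPN2 and PTPN22.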
